A study of Homo sapiens with 8 samples.

Results

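The loci described here are stretches of the genome for which both protein-coding and noncoding transcripts were listed in SQ20B cells. The deposited expression table lists each transcript with its RefSeq identifier and with the genomic stretch of overlapping genes in which it was quantified, the locus. A locus was included when it held at least 1 transcript with an NM_ identifier, which RefSeq gives to protein-coding mRNAs, and at least 1 with an NR_ identifier, which RefSeq gives to noncoding RNAs. Of 12882 loci in the table, 1448 met this rule. They held 3602 coding and 2038 noncoding transcripts, which were 63.3% of the 3221 noncoding transcripts listed. Of the other loci, 4085 held 2 or more coding transcripts and no noncoding one, 6388 held a single coding transcript, and 961 held noncoding transcripts only.

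SQ20B is an established human head and neck squamous cell carcinoma line, and the study compared cells kept in normoxia with cells kept in hypoxia, 0.5% O2 for 16 h, with 4 replicate libraries in each condition. The libraries were poly(A)-selected and stranded. The table gives 1 expression value per transcript and condition over the 4 replicates, as FPKM, the number of sequenced fragments scaled to transcript length and to the number of mapped fragments, so no spread between replicates could be computed and no difference below carries a test or an error. All differences are therefore described by their size. Depth of single libraries was not analysed here, and no counting interval is given. In these bulk libraries, fewer cells of a type and less RNA per cell cannot be told apart. Of 8 squamous and epithelial markers, 7 were listed (KRT14, a keratin of basal squamous cells, was not), with a summed FPKM of 847 in normoxia and 806 in hypoxia. Most of this sum was KRT5 (398 and 442) and EPCAM (317 and 233), and the lowest of the 7, KRT6A, had 5.10 and 3.26. Markers of other cell types were low: 1 of 4 fibroblast markers at 0.049 and 0.11 FPKM, 1 of 4 leukocyte markers at 0.12 and 0.13, 1 of 3 endothelial markers at 4.78 and 2.83, and the hepatocyte marker ALB was not listed.

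A gene can give rise to noncoding RNA in several ways. Alternative splicing can include an exon with an early stop codon or keep an intron, and such transcripts are often degraded by nonsense-mediated decay; the genes of serine/arginine-rich (SR) splicing factors are well known for doing so, which limits their own protein output. Other noncoding RNAs come from the opposite strand of a coding gene (antisense RNAs), or are cut out of its introns, as most small nucleolar RNAs (snoRNAs) and small Cajal body RNAs (scaRNAs) are, and these guide the chemical modification of ribosomal and spliceosomal RNA. Of the 1448 loci, 777 held a coding and a noncoding transcript of the same gene, and in 671 the noncoding transcripts belonged to other genes or could not be paired with a symbol.

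Exons that carry an early stop are shown for 3 genes whose coding and noncoding transcripts are described further on: SRSF6 and SRSF3, which encode SR splicing factors, and RBM39, a splicing cofactor whose noncoding share was close in both conditions. Each sequence runs in the reading direction of the gene from the start of an exon that the canonical transcript lacks to the first in-frame stop codon, which is in capitals, in the GRCh37 genome with the GENCODE v44 annotation lifted to it. In each of these 3 annotated transcripts the frame was open from the start codon to this stop.
SRSF6, chr20:42087793-42087944, plus strand, in an exon of 268 bases: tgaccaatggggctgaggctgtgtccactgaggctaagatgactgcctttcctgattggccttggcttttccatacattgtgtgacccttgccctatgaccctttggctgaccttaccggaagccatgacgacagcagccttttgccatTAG
SRSF3, chr6:36567598-36567631, plus strand, in an exon of 456 bases: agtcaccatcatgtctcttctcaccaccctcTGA
RBM39, chr20:34328448-34328519, minus strand, in an exon of 73 bases: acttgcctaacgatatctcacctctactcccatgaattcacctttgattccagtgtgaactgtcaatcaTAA
All 3 sequences lie inside their loci. The expression table gives no exon structure, so whether the noncoding transcripts it lists contain these exons was not tested.

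Annotation of such transcripts was common among these genes. Of 780 genes that had a coding and a noncoding transcript in the same locus and were found in GENCODE by symbol, 589 (75.5%) had at least 1 transcript annotated as a target of nonsense-mediated decay. The share was 51.5% among 3889 genes with 2 or more listed coding transcripts in loci without noncoding ones, and 39.9% among 6240 genes with a single one. Transcripts annotated with a retained intron were found for 65.8%, 67.0% and 53.1% of the same 3 sets, so the retained-intron class did not separate the first set from the second. The first set was chosen for holding a noncoding transcript of the gene. That choice can itself favour genes with annotated decay targets, so the higher share is not a separate result. These shares describe how the genes are annotated and not what was expressed in these cells.

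The noncoding share of a locus is the FPKM summed over its noncoding transcripts, as a percent of the FPKM summed over all of its transcripts. It does not depend on how the expression columns are scaled. Of the 1448 loci, 1417 had a mean summed FPKM of at least 0.5 over both conditions, and the counts that follow are over these. The median noncoding share was 8.32% in normoxia and 8.99% in hypoxia, and the median change was 0.099 percentage points. The share was higher in hypoxia at 772 loci and lower at 645, and 81.4% of the loci stayed within 5 percentage points. The 5th percentile of the change was -6.62 and the 95th percentile 8.67 percentage points.

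**Figure D1:**
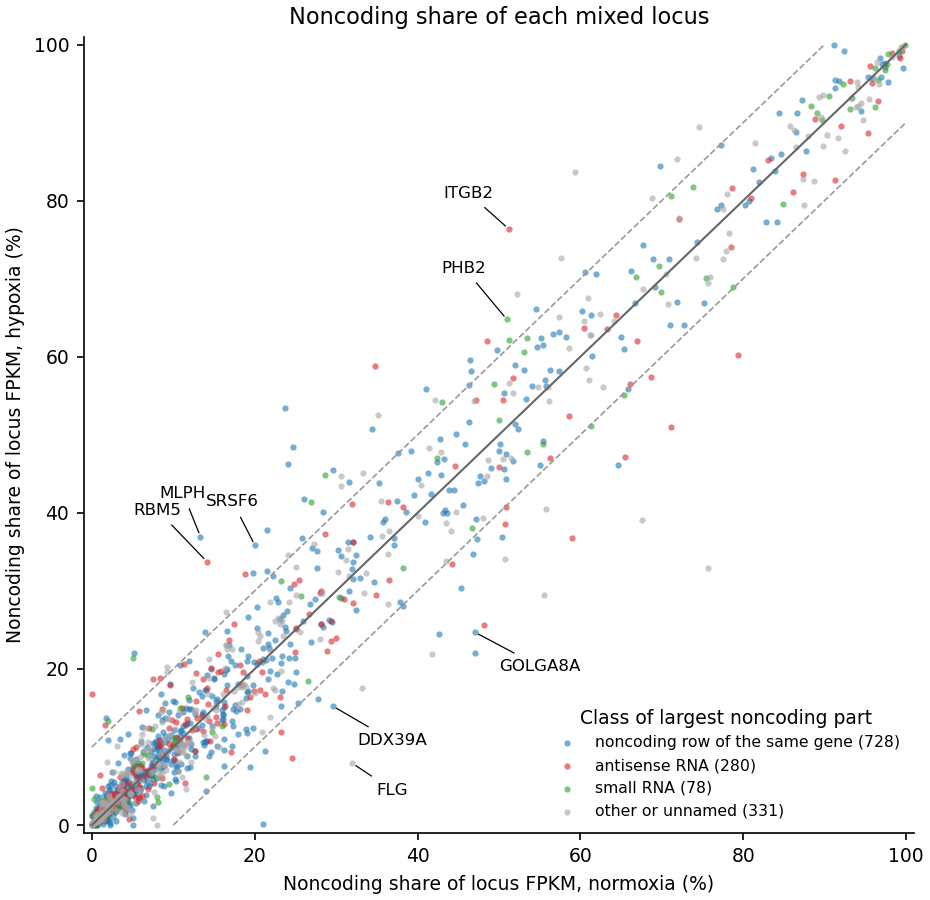
Noncoding share of the summed FPKM of each of 1417 loci in normoxia (x axis, percent) and in hypoxia (y axis, percent); each point is a locus, coloured by the kind of noncoding RNA that made up the largest part of its noncoding FPKM, the solid line marks equal shares, and the dashed lines mark a change of 10 percentage points. Most points lie between the dashed lines, with 56 loci on or above the upper line and 35 on or below the lower line.

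At 56 loci the noncoding share was at least 10 percentage points higher in hypoxia, which is 3.95% of the loci, and at 35 it was at least 10 percentage points lower, which is 2.47%. Just inside this limit stood DCAF11 with a change of 10.1 percentage points and PTPRG with -10.1, and just outside it LIG1, a DNA ligase, with 9.99 and GLIPR2 with -9.93. Among the 56 loci, the coding sum was lower in hypoxia at 45 and the noncoding sum was higher at 50. Among the 35 loci, the coding sum was higher at 29 and the noncoding sum lower at 27. Over all 1417 loci the coding sum was lower at 879 and higher at 538, and the noncoding sum was higher at 660 and lower at 757. Selection by the change of share itself favours these directions, so they are not a separate result. The noncoding part became the larger one at 17 loci of the 1417 and ceased to be the larger one at 24, and at 194 loci it was the larger one in both conditions. These 56 and 35 loci had a median summed FPKM of 4.98 and 3.35, against 16.6 for all 1417, so the largest changes of share were mostly in loci of low expression.

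The sums themselves can be read only against the scaling of the columns. The FPKM of all transcripts in the table added up to 536005 in normoxia and 458431 in hypoxia, and scaling both to the same total moves every log2 change up by 0.23. Changes are given on the log2(FPKM + 0.1) scale, positive where hypoxia was higher, and the added 0.1 makes changes at low FPKM look smaller than they are. The median log2 change of the coding sum was -0.13 and that of the noncoding sum -0.05 as deposited, and both medians turned positive, 0.10 and 0.16, with equal totals. The noncoding sum was at least 1.5-fold higher in hypoxia at 173 loci (12.2%) and at least 1.5-fold lower at 186 (13.1%). The coding sum was at least 1.5-fold higher at 105 (7.41%) and at least 1.5-fold lower at 170 (12.0%).

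Changes of proportion between transcripts were also seen at loci without noncoding RNA. At least 10% of the summed FPKM had moved from some transcripts of a locus to others, in either direction and of any kind, at 257 of the 1417 loci (18.1%) and at 620 of 3961 loci with several coding transcripts only (15.7%). Among loci with exactly 2 transcripts the order was the other way round, with 9.44% of 413 loci with a coding and a noncoding transcript and 11.6% of 2180 loci with a pair of coding transcripts.

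The gene lists were read against all genes of the same kind. Among 774 genes with a coding and a noncoding transcript in a locus that passed the filter, the gene's own noncoding share was at least 5 percentage points higher in hypoxia at 89 (11.5%) and at least 5 percentage points lower at 57 (7.36%), with a median log2 change of -0.17 for the coding and -0.13 for the noncoding part. Of 151 RNA processing genes on the list, 23 were among them. The share was at least 5 percentage points higher in hypoxia at 7 of the 23, namely SRSF6, RBM5, SRSF1, SRSF3, U2AF1L4, CLK1 and SRSF10, and at least 5 percentage points lower at 1, DDX39A. Over all 23 it was higher at 13 and lower at 10. The median log2 change of the coding part was -0.50 and that of the noncoding part -0.19. Coding FPKM was lower in hypoxia at 20 of the 23 genes, or at 18 with equal totals, and noncoding FPKM was lower at 15, or at 11 with equal totals. For comparison, 763 loci past the filter held both kinds of transcript of the same gene. As deposited, the coding sum was lower at 512 of these loci and the noncoding sum at 461, so lower values were common among all such loci. These are sums over whole loci, while the list counts are per gene. No such count with equal totals is given here, so the counts of 18 and 11 have no comparison.

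SRSF6, at chr20:42086504-42092244 (hg19), had 1 coding and 1 noncoding transcript. Its coding FPKM was 48.3 in normoxia and 21.5 in hypoxia, while its noncoding FPKM was 12.1 and 12.0. The noncoding share thus went from 20.02% to 35.8% with a noncoding level near constant as deposited and a coding level that was lower by 1.17 on the log2 scale.

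SRSF1, at chr17:56078280-56084707, encodes the founding member of the SR family. Its coding FPKM was 217 in normoxia and 107 in hypoxia, and its noncoding FPKM was 4.48 and 13.1, so the coding and noncoding parts moved in opposite directions, by -1.02 and 1.52 on the log2 scale. The coding transcripts were not alike: NM_006924 went from 203 to 90.5 FPKM and NM_001078166 from 14.3 to 16.2. The noncoding share went from 2.02% to 10.9%.

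SRSF3, at chr6:36562090-36572244, had a coding FPKM of 225 in normoxia and 125 in hypoxia and a noncoding FPKM of 23.9 and 27.6. Its noncoding share went from 9.60% to 18.1%. These are RNA levels, and the paper reported an increase of SRSF3 protein in hypoxia. SRSF10, listed on an unplaced sequence of chromosome 1, had a coding FPKM of 125 and 83.9 and a noncoding FPKM of 21.3 and 21.0, with a share of 14.6% and 19.98%. These 4 genes had in common a lower coding level in hypoxia, also with equal totals, beside a noncoding level that was about equal or higher. They are among the genes whose share was at least 5 percentage points higher, a choice that itself favours this pattern.

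The SR family did not move as one. SRSF2, at chr17:74730197-74775336 in a locus shared with MFSD11, had coding FPKM of 207 and 146 and noncoding FPKM of 9.30 and 5.04 from its own transcripts, with a share of 4.31% and 3.34%. SRSF8 had coding FPKM of 10.2 and 6.79 and noncoding FPKM of 0.81 and 0.49, with a share of 7.34% and 6.68%. In both, the summed coding and noncoding levels were lower together. The coding transcripts of SRSF2 were not alike: NM_001195427 went from 148 to 80.3 FPKM and NM_003016 from 58.9 to 65.5. CLK1, a kinase that phosphorylates SR proteins, was higher in hypoxia in both parts: coding FPKM was 21.0 and 27.8, noncoding FPKM was 25.9 and 46.3, and the noncoding share was 55.2% and 62.5%.

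RBM5, an RNA-binding splicing regulator at chr3:50126341-50156397, had a coding FPKM of 20.9 in normoxia and 15.2 in hypoxia. The noncoding transcript of RBM5 itself had 0.98 and 2.75 FPKM, and the antisense RNA RBM5-AS1, which lies in the same locus, had 2.46 and 4.99. The gene's own noncoding share went from 4.47% to 15.3%, and that of the locus with the antisense RNA from 14.1% to 33.8%. RBM39, at chr20:34291531-34330258, is the contrast among genes with an exon shown above: its coding FPKM was 135 and 110, its noncoding FPKM 34.3 and 28.8, and its noncoding share 20.2% and 20.7%. DHX9, an RNA helicase, likewise had coding FPKM of 164 and 126, noncoding FPKM of 6.88 and 6.14, and a share of 4.03% and 4.66%. SNRPD3, a core spliceosomal protein, had coding FPKM of 157 and 126 and noncoding FPKM of 1.18 and 0.92.

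DDX39A, an RNA helicase of mRNA export at chr19:14519610-14530195, was the exception in the other direction. Its coding FPKM was 16.0 in normoxia and 11.7 in hypoxia, and its noncoding FPKM was 6.72 and 2.11. The noncoding level was lower by 1.63 on the log2 scale and the coding level by 0.45, and the noncoding share went from 29.6% to 15.2%. In its paralog DDX39B the coding FPKM was 137 and 84.4 and the noncoding FPKM 0.94 and 0.39, with a noncoding share below 1 in both conditions (0.68% and 0.46%).

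**Figure D2:**
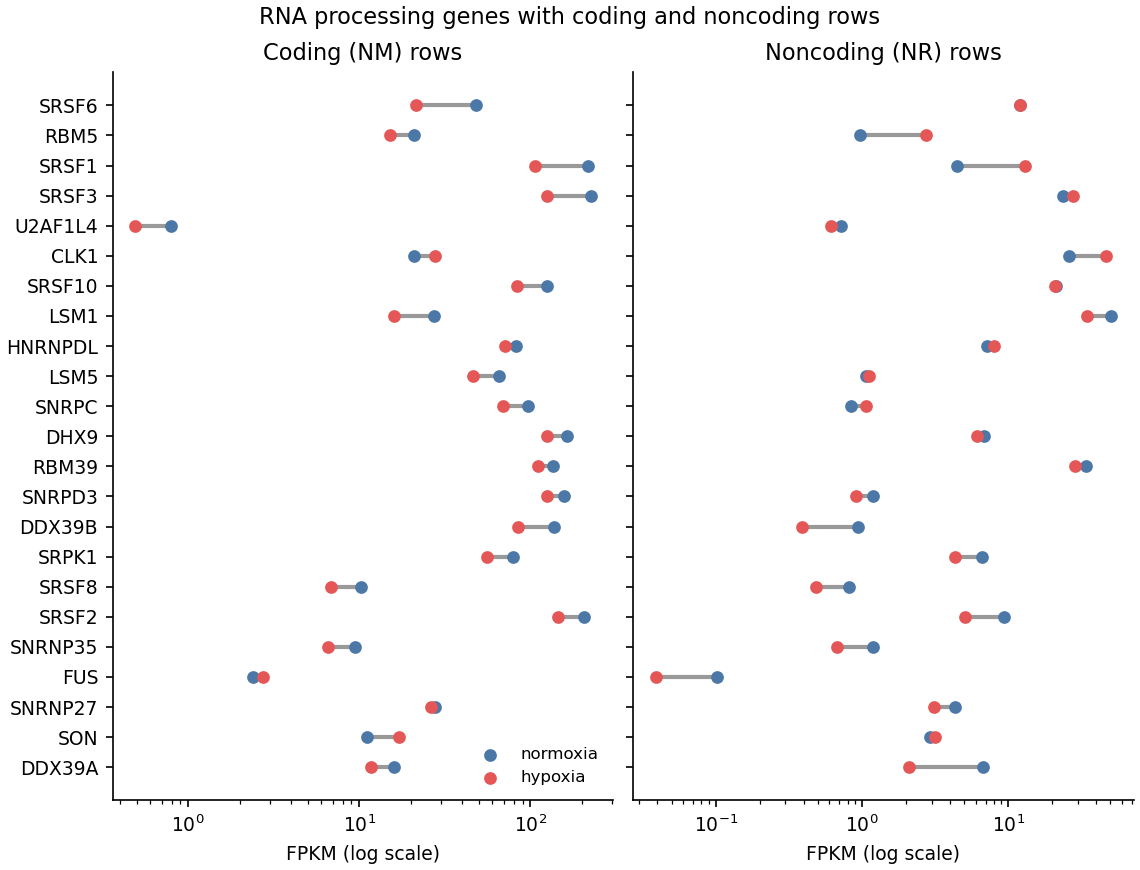
FPKM on a log scale of the coding transcripts (left) and noncoding transcripts (right) of 23 RNA processing genes in normoxia (blue) and hypoxia (red), 1 value per condition over 4 replicates, ordered by the change of the gene's noncoding share with the largest increase on top. Coding FPKM was lower in hypoxia in 20 genes, while the noncoding FPKM of SRSF6 and SRSF10 hardly moved and that of SRSF1 and RBM5 was higher.

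In the other lists the median log2 changes of the coding and noncoding parts lay closer together than among the RNA processing genes. Of 185 genes of DNA repair, replication and cell cycle, 13 had both kinds of transcript, and the share was at least 5 percentage points higher at 3 (LIG1, POLD1 and XPA) and at least 5 percentage points lower at 0. RAD51C, a homologous recombination protein, had coding FPKM of 55.1 and 38.8 and noncoding FPKM of 17.3 and 12.8, with a share of 23.9% and 24.8%. CHEK1, a checkpoint kinase, had coding FPKM of 46.0 and 30.4 and noncoding FPKM of 12.3 and 8.29, with a share of 21.1% and 21.4%. ORC2, a subunit of the origin recognition complex, had coding FPKM of 27.0 and 17.1 and noncoding FPKM of 2.82 and 2.87, with a share of 9.46% and 14.4%. LIG1 had coding FPKM of 3.37 and 2.92 and noncoding FPKM of 2.91 and 3.76, and its share went from 46.3% to 56.3%. XPA, a damage recognition protein of nucleotide excision repair, had coding FPKM of 17.1 and 13.7 and noncoding FPKM of 1.89 and 2.59. In POLD1, the catalytic subunit of DNA polymerase delta, the coding FPKM was only 0.14 and 0.012, beside noncoding FPKM of 1.64 and 1.42.

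Of 217 mitochondrial genes, 18 had both kinds of transcript. Coding FPKM was lower in hypoxia at 17 and noncoding FPKM at 17, or at 14 each with equal totals, and the median log2 changes were -0.37 and -0.32. Of the 763 loci with both kinds of transcript of the same gene, 512 had a lower coding sum and 461 a lower noncoding sum as deposited. Those are sums over whole loci, and the counts with equal totals have no such comparison here. The share was at least 5 percentage points higher at 1 gene, TIMM8B, an import chaperone of the intermembrane space, where it went from 19.6% to 25.3%. ATP5ME, a subunit of ATP synthase, had coding FPKM of 232 and 178 and noncoding FPKM of 64.0 and 53.9, with a share of 21.7% and 23.3%. COX7A2, a subunit of cytochrome c oxidase, had coding FPKM of 276 and 223 and noncoding FPKM of 5.45 and 3.69. Coding and noncoding parts did not always differ alike: in MRPS2, a mitochondrial ribosomal protein, the log2 change was -0.56 for the coding and 0.51 for the noncoding part, and in NDUFA5, a subunit of complex I, it was -0.36 and -0.85.

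Of 174 translation genes, 7 had both kinds of transcript. EIF6, a factor of large ribosomal subunit maturation at chr20:33866709-33872619, had coding FPKM of 83.7 in normoxia and 47.2 in hypoxia. Its 2 noncoding transcripts had 9.41 and 8.01 FPKM in normoxia and 3.26 and 2.04 in hypoxia, and the noncoding share went from 17.2% to 10.1%, the only change of at least 5 percentage points among these 7 genes. RPL13A, a ribosomal protein whose processed pseudogenes can share its reads, had coding FPKM of 1098 and 1044 and noncoding FPKM of 24.5 and 33.1. TARS1, the threonyl-tRNA synthetase, had coding FPKM of 442 and 308 and noncoding FPKM of 2.07 and 1.22.

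Of 70 genes of the hypoxia response, 2 had both kinds of transcript. PDK1, the pyruvate dehydrogenase kinase that limits the entry of pyruvate into the citric acid cycle, had coding FPKM of 5.21 in normoxia and 18.0 in hypoxia and noncoding FPKM of 0.99 and 2.80. Each of its 4 transcripts was higher in hypoxia: the coding transcripts went from 4.39 to 15.3 and from 0.82 to 2.68 FPKM, and the noncoding ones from 0.75 to 1.92 and from 0.25 to 0.88. GYS1, the muscle glycogen synthase, had coding FPKM of 3.02 and 5.19 and noncoding FPKM of 1.15 and 2.54. The noncoding share was 16.0% and 13.5% for PDK1 and 27.6% and 32.9% for GYS1, so both parts of these genes were higher and the shares moved in different directions.

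Among loci with both kinds of transcript from the same gene and a mean FPKM of at least 2, MLPH had the largest increase of the noncoding share of the locus. MLPH, at chr2:238395053-238463961, encodes melanophilin, an adaptor of vesicle transport. Its 4 coding transcripts added up to 2.67 FPKM in normoxia and 2.09 in hypoxia, and its noncoding transcript had 0.41 and 1.23, so the share went from 13.3% to 37.0%. The coding transcripts were not alike here either, with NM_001281474 at 0.99 and 1.24 FPKM and NM_001281473 at 1.35 and 0.83. At the locus of NT5C, a nucleotidase, and ARMC7, the coding sum was 4.60 and 2.03 FPKM and the noncoding sum 1.46 and 1.75, with a share of 24.1% and 46.3%. NT5C itself had coding FPKM of 3.16 and 1.36, and its own noncoding share was 31.6% and 56.2%, a larger change than that of MLPH.

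The other loci with the largest increases had noncoding sums that were higher, lower or little changed. RAB24, a small GTPase, had coding FPKM of 1.39 and 1.23, noncoding FPKM of 0.73 and 1.27, and a share of 34.4% and 50.8%. TRMT10B, a tRNA methyltransferase, had coding FPKM of 2.87 and 1.79, noncoding FPKM of 1.01 and 1.29, and a share of 25.99% and 41.8%. C1orf52 had coding FPKM of 8.74 and 5.33, noncoding FPKM of 2.39 and 3.24, and a share of 21.5% and 37.8%. In these loci the noncoding sum was higher and the coding sum lower in hypoxia, as deposited. ARRB2, which encodes beta-arrestin 2, instead had coding FPKM of 7.72 and 3.48 and noncoding FPKM of 5.37 and 4.41, so both parts were lower and the share still went from 41.0% to 55.9%. TMEM222 had coding FPKM of 2.51 and 0.92 and noncoding FPKM of 2.74 and 1.96, with a share of 52.2% and 68.0%. Most of this noncoding sum came from the pseudogene ACTG1P20, with 1.75 and 1.21 FPKM, and the share of TMEM222 transcripts alone was 28.3% and 44.9%. HMGXB4, an HMG-box protein, had coding FPKM of 2.88 and 1.49, noncoding FPKM of 6.64 and 8.10, and a share of 69.7% and 84.4%.

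**Figure D3:**
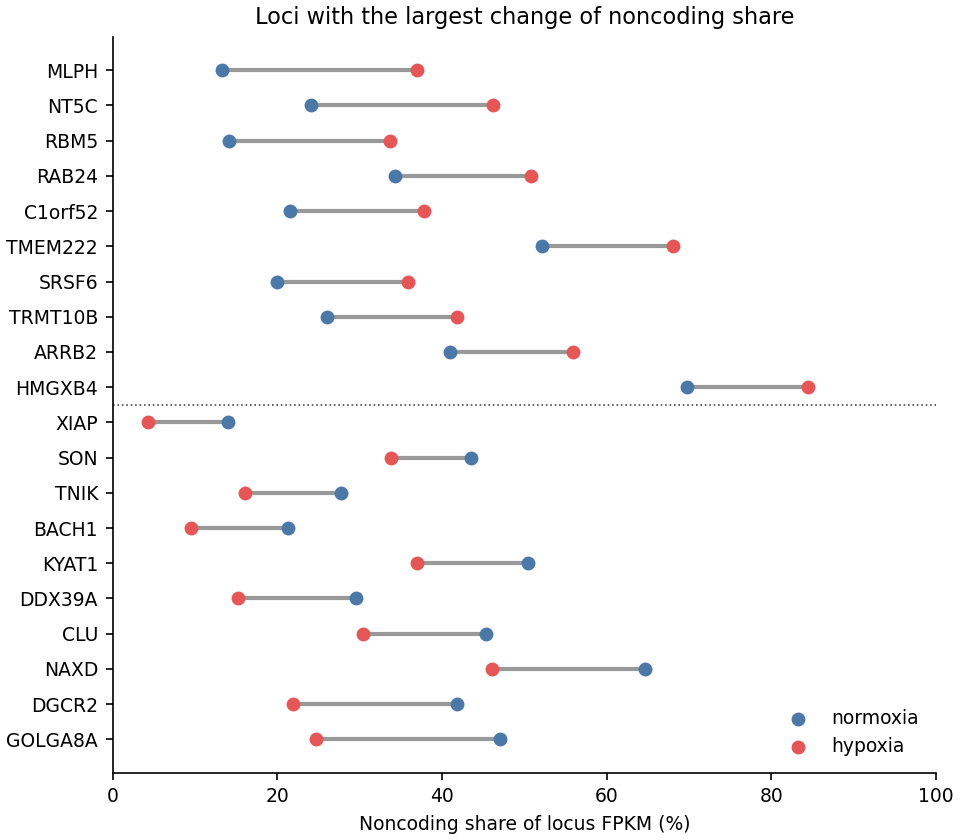
Noncoding share of the summed FPKM (x axis, percent) in normoxia (blue) and hypoxia (red) for the 10 loci with the largest increase (above the dotted line) and the 10 with the largest decrease (below it) among loci with coding and noncoding transcripts of the same gene and a mean FPKM of at least 2. The lines run from 13.3% to 37.0% for MLPH at the top and from 47.0% to 24.7% for GOLGA8A at the bottom.

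The largest decreases were mostly in loci with a higher coding level in hypoxia, which a choice by falling share itself favours. GOLGA8A, of the golgin family, had coding FPKM of 1.24 in normoxia and 6.55 in hypoxia and noncoding FPKM of 1.11 and 2.15, with a share of 47.0% and 24.7%; the family has near-identical copies that can share reads, and its values are uncertain for that reason. BACH1, a heme-binding repressor of transcription at chr21:30671220-30734217, had coding FPKM of 22.4 and 48.9 and noncoding FPKM of 6.07 and 5.16, with a share of 21.3% and 9.55%. TNIK, a kinase of the Wnt pathway, had coding FPKM of 1.90 and 4.61, noncoding FPKM of 0.73 and 0.89, and a share of 27.7% and 16.1%. SON, a nuclear speckle protein that promotes splicing, had coding FPKM of 11.1 and 17.0, and the noncoding sum of its locus was 8.55 and 8.67, with a share of 43.5% and 33.8%. Of its 3 noncoding transcripts, 1 could be paired with SON, with 2.91 and 3.18 FPKM, which gave SON itself a share of 20.8% and 15.8%. In BACH1, TNIK and SON the coding sum was higher while the noncoding sum differed by at most 0.25 on the log2 scale as deposited. With equal totals the noncoding log2 change was -0.0093 for BACH1, 0.46 for TNIK and 0.24 for SON.

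A second kind of decrease had a lower noncoding level. NAXD, an enzyme that repairs damaged NADH and NADPH, had coding FPKM of 4.24 and 5.28 and noncoding FPKM of 7.77 and 4.52, with a share of 64.7% and 46.1%. XIAP, an inhibitor of caspases, had coding FPKM of 10.9 and 10.4 and noncoding FPKM of 1.78 and 0.47, with a share of 14.02% and 4.34%. KYAT1, a kynurenine aminotransferase, had coding FPKM of 1.76 and 1.96 and noncoding FPKM of 1.79 and 1.15, with a share of 50.4% and 36.9%. DGCR2 had coding FPKM of 2.73 and 4.20 and noncoding FPKM of 1.96 and 1.18, with a share of 41.8% and 21.9%, but most of this noncoding sum came from DGCR11, with 1.60 and 1.18 FPKM. CLU, the chaperone clusterin, had coding FPKM of 8.49 and 12.4 and noncoding FPKM of 7.04 and 5.44, with a share of 45.3% and 30.4%.

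Coding and noncoding sums differed in opposite directions by at least 1.5-fold each at 7 loci. These were counted among loci with coding and noncoding transcripts of the same gene and a mean FPKM of at least 2. They are a small part of the 763 loci past the filter that held both kinds of transcript of the same gene. How many of the 763 had a mean FPKM of at least 2 is not given here. Besides SRSF1, NSUN2, an RNA cytosine methyltransferase, had coding FPKM of 52.1 and 24.2 and noncoding FPKM of 0.065 and 0.28. ADISSP had coding FPKM of 13.3 and 6.83 and noncoding FPKM of 0.036 and 0.11. ITGA2, the integrin alpha 2 subunit, went the other way, with coding FPKM of 22.2 and 35.3 and noncoding FPKM of 1.82 and 0.90. At the locus of SNAPIN, a SNARE-associated protein, the coding sum of 358 and 217 FPKM was mostly that of ILF2. SNAPIN itself had coding FPKM of 35.4 and 28.5, a difference below 1.5-fold, and noncoding FPKM of 0.98 and 2.63. In NSUN2 and ADISSP the noncoding part was under 2% of the locus in both conditions, a range in which FPKM depends on how reads shared by overlapping transcripts were divided.

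At some loci nearly all of the listed FPKM was assigned to noncoding transcripts of the gene. This depends on how reads shared with coding transcripts were divided, which was not tested. Transcripts below about 0.1 FPKM in both conditions are not listed. MARCKSL1 had coding FPKM of 0.083 and 0.20 and noncoding FPKM of 9.69 and 12.8, a share of 99.2% and 98.5%. ZNF585A, ASB13, TYSND1 and CMPK2 had shares between 96.8% and 99.6% in both conditions. For TYSND1 the noncoding sum of 5.92 and 5.05 FPKM was spread over 5 transcripts, of which NR_073591 went from 3.07 to 3.50 and NR_073582 from 0.78 to 0.29. ZFAND1 was among the loci with the most noncoding FPKM from the gene itself, 83.6 in normoxia and 72.2 in hypoxia over 4 noncoding transcripts, beside coding FPKM of 24.5 and 10.7, and its share went from 77.3% to 87.1%.

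Small RNAs inside coding genes held most of the noncoding FPKM. FPKM divides by transcript length, and for RNAs this short a few fragments give a large value. The libraries were poly(A)-selected. Whether reads at these positions came from the small RNA itself or from host RNA that kept the intron was not tested. The 98 small RNA transcripts accounted for 79.7% of all noncoding FPKM of the 1448 loci in normoxia and 80.1% in hypoxia. SNORA63, in the locus of the translation initiation factor EIF4A2, alone held 32.6% and 32.5%, with 11865 and 10788 FPKM. Without small RNAs the noncoding share of the FPKM of all loci together was 11.0% in normoxia and 11.6% in hypoxia, against 30.1% and 31.8% with them. Of 94 small RNAs whose mean FPKM was 0.5 or more, 23 (24.5%) were at least 1.5-fold lower in hypoxia and 12 (12.8%) at least 1.5-fold higher; over all 18190 transcripts of the table that passed the same limit these shares were 14.3% and 10.5%.

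In 78 loci a small RNA made up the largest part of the noncoding FPKM, and the share was at least 10 percentage points higher in hypoxia at 7 of them and at least 10 percentage points lower at 2, against 3.95% and 2.47% of all 1417 loci. Sequences are shown for 3 of the 7, whose small RNAs are of the H/ACA type of snoRNA, which ends in the trinucleotide ACA a few bases before its 3′ end (in capitals). They are read from the GRCh37 genome at the positions GENCODE gives, each inside an intron of the host gene's canonical transcript and on the host's strand.
SNORA80B in ODC1, chr2:10586840-10586975, minus strand: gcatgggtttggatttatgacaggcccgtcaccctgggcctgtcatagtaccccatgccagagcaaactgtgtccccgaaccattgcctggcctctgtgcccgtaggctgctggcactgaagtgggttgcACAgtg
SNORA79 in GTF2A1, chr14:81669039-81669178, minus strand: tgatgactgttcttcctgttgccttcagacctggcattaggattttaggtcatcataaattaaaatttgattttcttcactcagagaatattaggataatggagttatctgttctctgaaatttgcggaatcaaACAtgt
SNORA55 in PABPC4, chr1:40033046-40033180, minus strand: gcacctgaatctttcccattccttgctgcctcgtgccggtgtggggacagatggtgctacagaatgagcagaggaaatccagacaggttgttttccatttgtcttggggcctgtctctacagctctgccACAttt

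At ODC1, the rate-limiting enzyme of polyamine synthesis, coding FPKM was 157 in normoxia and 50.1 in hypoxia and SNORA80B had 8.42 and 13.7, so the noncoding share went from 5.08% to 21.4%. At GTF2A1, a general transcription factor subunit, coding FPKM was 20.5 and 16.6 and SNORA79 had 7.53 and 11.7. At PABPC4, a poly(A)-binding protein, coding FPKM was 43.2 and 32.3 and SNORA55 had 0.88 and 4.98. In these 3 loci the FPKM of the host mRNA was lower in hypoxia and the FPKM listed for the small RNA was higher. PHB2, a mitochondrial prohibitin, and its SCARNA12 moved likewise, with coding FPKM of 149 and 94.2 and small RNA FPKM of 155 and 173. A choice by rising share itself favours this pattern. NOL11, with a share of 43.0% and 54.2%, had coding FPKM of 102 and 60.1 and its SNORA38B had 77.1 and 71.0, so both were lower. At NOP56, a core protein of the C/D class of snoRNA particles, coding FPKM was 247 and 86.5, the noncoding transcript of the gene itself had 68.9 and 42.1, and SNORA51 had 17.0 and 8.28, so all 3 kinds were lower and the share still went from 25.8% to 36.8%. POLA1, the catalytic subunit of DNA polymerase alpha, had coding FPKM of 31.4 and 33.5 and SCARNA23 had 59.3 and 41.1, a share of 65.4% and 55.1%. At 3 loci with abundant small RNAs the share changed by under 10 percentage points: at TRNAU1AP, noncoding FPKM was 277 and 205 and the share 93.2% and 91.7%. At IARS1, the isoleucyl-tRNA synthetase, SNORA84 had 222 and 224 FPKM beside coding FPKM of 228 and 173, a share of 49.4% and 56.5%. At the locus of C11orf98, CSKMT, LBHD1 and UQCC3, the noncoding sum was 223 and 135 beside a coding sum of 302 and 152, and the share was 42.4% and 47.1%.

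**Figure D4:**
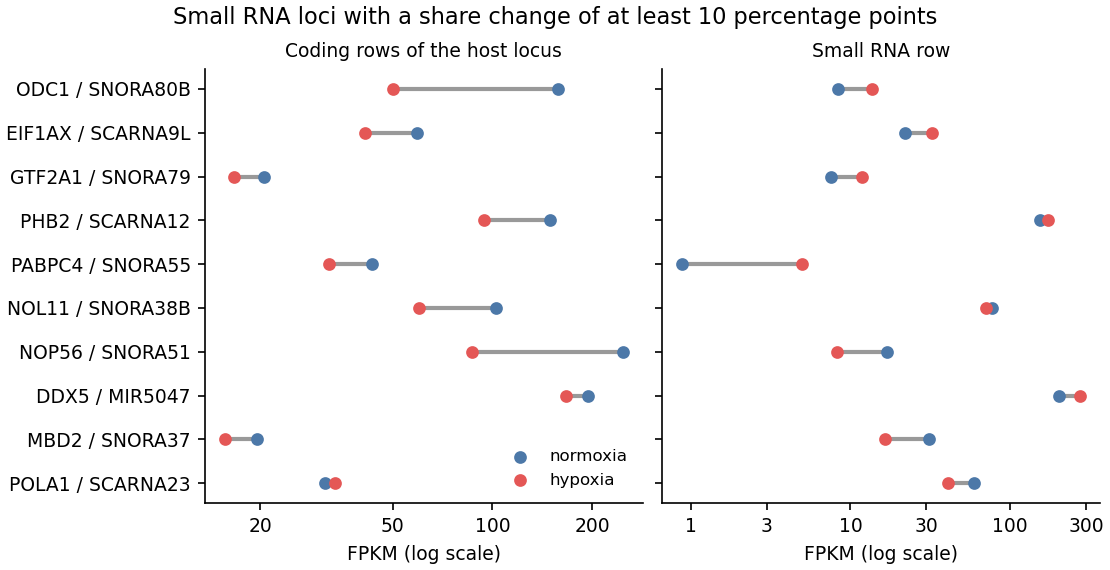
FPKM on a log scale of the coding transcripts of the host locus (left) and of the small RNA (right) in normoxia (blue) and hypoxia (red) for the 10 small RNAs in loci whose noncoding share changed by at least 10 percentage points, ordered by that change with the largest increase on top. The top 5 (ODC1, EIF1AX, GTF2A1, PHB2 and PABPC4) have a lower host mRNA FPKM and a higher small RNA FPKM in hypoxia, while at NOL11 and NOP56 both are lower.

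Host genes of several small RNAs also appeared as long noncoding RNAs in these loci. Of 9 such SNHG genes, 8 had a lower FPKM in hypoxia, as did 57.4% of all 18190 transcripts with a mean FPKM of 0.5 or more. SNHG29, with 24 noncoding transcripts in a locus with LRRC75A, had 1113 and 945 FPKM, SNHG3, in the locus of the nucleotide exchange factor RCC1, had 75.8 and 36.6, and SNHG4, in the locus of MATR3, had 30.8 and 8.73. SNHG31, at 0.13 and 0.25 FPKM, was the ninth. With equal totals, which add 0.23, the log2 change of SNHG6 (-0.17) turns positive and that of SNHG29 (-0.24) comes to about 0.

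Antisense RNAs made up the largest noncoding part at 280 loci. Their noncoding sum was at least 1.5-fold higher in hypoxia at 47 (16.8%) and at least 1.5-fold lower at 15 (5.36%), against 12.2% and 13.1% of all 1417 loci, and the noncoding share was higher at 164 and lower at 116. Most antisense RNAs were scarce, with a median of 0.49 FPKM, and of the 202 whose mean FPKM was 0.5 or more, 32 (15.8%) were at least 1.5-fold higher and 23 (11.4%) at least 1.5-fold lower, against 10.5% and 14.3% of all transcripts. How the authors' quantification used the strand of the reads is not given in the sources used here, and without it reads from a gene and its antisense partner cannot be told apart. The antisense RNAs named next, other than those of ITGB2 and MELTF, were chosen after their values were seen.

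HIF1A-AS2 had 3.67 FPKM in normoxia and 20.1 in hypoxia, an increase of 2.42 on the log2 scale, the largest of the 202. The coding sum of its locus, chr14:62147759-62215807, which holds HIF1A, the oxygen-regulated subunit of hypoxia-inducible factor 1, was 253 and 141 FPKM. P4HA2-AS1 had 1.06 and 4.11 FPKM beside coding FPKM of 6.44 and 19.3 for P4HA2, a subunit of collagen prolyl 4-hydroxylase. FAM13A-AS1 had 0.22 and 1.14 FPKM beside coding FPKM of 4.09 and 15.1 for FAM13A. In HIF1A the antisense RNA and the mRNA differed in opposite directions, and in P4HA2 and FAM13A both were higher. HOXA10-AS had the largest decrease, from 3.28 to 0.51 FPKM, beside coding FPKM of 2.64 and 1.59 for its locus with HOXA9 and HOXA10. NNT-AS1 had 6.41 and 3.47 FPKM beside coding FPKM of 21.2 and 25.6 for NNT, the mitochondrial transhydrogenase.

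**Figure D5:**
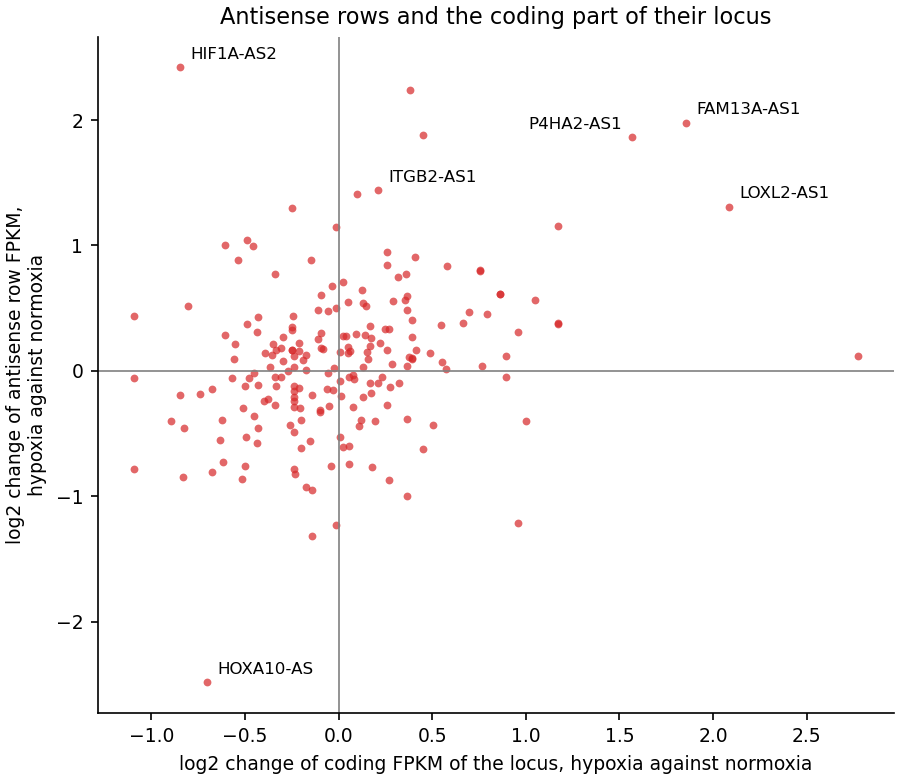
Log2 change in hypoxia against normoxia of each of 202 antisense transcripts whose mean FPKM was 0.5 or more (y axis) and of the coding sum of its locus (x axis), both on the log2(FPKM + 0.1) scale; each point is a transcript, and transcripts of the same locus share their x value. HIF1A-AS2 lies at the upper left with 2.42 for the antisense RNA and -0.85 for the coding sum, and HOXA10-AS lies lowest with -2.48.

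Among loci whose coding and noncoding transcripts carry different symbols and whose mean FPKM was 2 or more, ITGB2 had the largest increase of noncoding share. ITGB2, at chr21:46305868-46349595, encodes the beta 2 integrin of leukocytes. Its coding FPKM was 0.73 and 0.86 and the transcripts of ITGB2-AS1 added up to 0.77 in normoxia and 2.79 in hypoxia, a share of 51.2% and 76.4%. MELTF, which encodes melanotransferrin, had coding FPKM of 1.40 and 1.51 beside 0.75 and 2.15 for MELTF-AS1, a share of 34.7% and 58.8%. In the locus of the cytokine gene CLCF1 most noncoding FPKM came from a noncoding transcript of POLD4, a subunit of DNA polymerase delta, with 2.21 and 3.99 FPKM, and the share was 59.3% and 83.7%. The largest decrease was at WBP1, where WBP1 and INO80B together had coding FPKM of 3.09 and 6.37, while the readthrough transcript INO80B-WBP1 had 6.44 and 4.08, a share of 67.6% and 39.0%. FLG, which encodes the epidermal barrier protein filaggrin, had coding FPKM of 0.49 and 3.65 beside 0.23 and 0.31 for the noncoding gene CCDST, a share of 31.99% and 7.91%. A locus on an alternate haplotype of chromosome 6 with HCG4 had coding FPKM of 1.66 and 8.31, of transcripts that could not be paired with a symbol, and a share of 55.6% and 29.4%.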

How the data were processed

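RNA-seq of SQ20B cells in normoxia and hypoxia (4 replicates each) was analysed from 1 deposited table. The authors aligned reads with STAR 2.3.0.1 and quantified RefSeq hg19 transcripts with Cuffdiff (Cufflinks 2.1.1, standard parameters), versions as in the submitters' processing notes; the deposited FPKM is a single figure for each condition, which pools 4 replicates. Every transcript listed reached about 0.1 FPKM (lowest 0.0998) in its higher condition, so a locus counts here only if a noncoding transcript did so. The table also holds the authors' log2 fold changes, test statistics, p-values and q-values, which were not used. Groups came from the source labels; the treatment text is repeated for normoxia samples. The planned limma fit needs replicate values and was not run, so nothing was tested.

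FPKM was summed over NM_ and over NR_ transcripts of each locus (Python 3.11.15, pandas 2.3.3), with a mean FPKM limit of 0.5 and a pseudocount of 0.1. Symbols came from RefSeq (GRCh38.p14, names only) and covered 96.2% of the 5640 transcripts of these loci; 213 had none. Coordinates are the table's (hg19), counted from 1; 1400 of 1421 naming genes found in GENCODE overlapped their locus. Named loci were the 10 largest increases and 10 largest decreases of share, the 5 with most noncoding FPKM, the 5 with the largest share above 50%, up to 5 with opposite directions, up to 6 per list (all with a mean of at least 2 FPKM outside the lists), and the 3 largest changes each way among loci with different symbols; others were chosen after their values were seen, among them the antisense, small RNA and SNHG transcripts and several genes of the lists. The loci and lists were chosen with earlier results of these data known. The sums were tested on simulated data.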

Additional observations from a re-analysis of the deposited data

How the results depend on the processing

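Of 50 recomputed values, 34 kept their sign and stayed within set limits (1.5 times for counts, 5 percentage points for the share of all FPKM, 0.5 for the median change of share, 0.1 for median log2 changes). Within these limits the median change of share ran from 0.00335 (same gene only) to 0.229 percentage points (both sums at least 0.5 FPKM), and the median noncoding log2 change reached -0.129 (same gene only). With a mean FPKM of at least 5, 28 loci had a share at least 10 percentage points higher (56 before), 15 lower (35), and 120 had more noncoding than coding FPKM in both conditions (194). With transcripts of the same gene only, these counts were 29, 18 and 87, and the noncoding share of all FPKM was 9.03% in normoxia and 9.75% in hypoxia. Without small RNAs that share was 11.0% and 11.6%. With a limit of 5 percentage points, 154 loci were higher and 110 lower, and with 20, 7 and 10. With columns scaled to equal sums, the median log2 change of the coding sum was 0.0967 and that of the noncoding sum 0.157, both reversed. The order of higher over lower counts was kept except at 20 percentage points.

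No paired analysis was possible because the table holds 1 value per condition; for the same reason the replicate block and leaving out each replicate were not run. With no replicate values and no read counts, the precision of every share is unknown.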
